A study of Drosophila melanogaster with 9 samples.

Results

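The genes *CG3348*, *B4*, *CG11347* and *CG1113* were examined in *Drosophila* S2 cells, an established cell line of embryonic, hemocyte-like origin. They are 4 of the 13937 genes in the count table. They were chosen from these same libraries, for large changes against control that held when any library was left out. Their changes against control are therefore a description and carry no test here. The same holds for the gap between the DILP and control libraries of each gene, which this choice favors. How many of all genes show such a gap was not counted. All cells were first serum-depleted for 16 h. They then received, for 1 h, 100 nM of the insulin-like peptide DILP2 (synthetic), 100 nM of DILP5 (recombinant) or only the dilute acid in which the peptides were dissolved (vehicle, here control). Polyadenylated RNA was sequenced in 3 libraries per condition, called replicates A, B and C. Nothing states that these came from separate cultures, so the spread between them may be technical.

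The genes were grouped as responders of little known function. The annotation goes against this for 2 of them. *B4* (FBgn0023407) has the synonym *Susi*, and *CG11347* (FBgn0035542) is now named *TP53INP* and has the synonyms *DOR* and *dDOR*. For *CG3348* (FBgn0040609) and *CG1113* (FBgn0037304), the annotation used here gives a protein-coding gene with no name beyond its number.

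By way of background, insulin-like peptides bind the fly insulin receptor InR, which through the substrate chico recruits phosphoinositide-3-kinase (PI3K). PI3K is made of a catalytic subunit, encoded by *Pi3K92E*, and a regulatory subunit, encoded by *Pi3K21B*. Its lipid product activates Akt, and Akt keeps the transcription factor FOXO out of the nucleus. Susi is known in flies as a coiled-coil protein that binds the regulatory subunit and restrains PI3K, and thereby growth. DOR is known in flies as a coactivator of the ecdysone receptor whose gene is held down by insulin signaling through FOXO. Its mammalian relatives, the TP53INP proteins, take part in stress responses and in autophagy.

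In the BDGP6 annotation, *B4* lies on chromosome arm 2L, on the minus strand. It has 3 transcripts, and its exons cover 8114 bp. *CG11347* lies on the plus strand of 3L, with 8 transcripts and 3058 exonic bp. *CG3348* and *CG1113* both lie on 3R, on the minus and plus strand, with 561 and 1992 exonic bp. No coordinates are given, since the reads were mapped to dm3.

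Depth ranged from 28365854 to 38557706 counts per library. Values are CPM, counts scaled to library size after TMM normalization, with means ± SD over 3 libraries. Replicate C of DILP2 and of DILP5 lay apart from the other 4 DILP libraries on the first principal component, with scores of -0.173 and -1.79 against 7.67 to 11.55. Control replicate C was likewise the lowest of the controls, at -16.9 against -8.53 for A and -12.2 for B. Values without the C libraries are therefore given below. Of 8 hemocyte markers, *srp*, *crq* and *vkg* had 379, 388 and 388 CPM in the control and *Pxn* 36.3 CPM. The others were scarce, with 3.67 CPM for *Hml*, 3.95 for *eater* and 0.579 for *Sr-CI*, and at most 8 counts in any library for *NimC1*. The neuronal gene *elav* had 68.4 CPM in the control, and the germline gene *vas* had at most 9 counts. In both comparisons with control, which share the 3 control libraries, *srp* was the 1 marker called of the 7 hemocyte markers tested, with log2 fold changes of -0.30 and -0.28, beside 10.9% of all genes called with DILP2 and 13.1% with DILP5. In these bulk libraries, fewer cells expressing a gene and less of its RNA per cell cannot be told apart.

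*B4* had the most counts of the 4 genes and rose with both peptides. Control replicates A, B and C held 280.3, 281 and 283 CPM. The DILP2 libraries held 490.5, 494 and 499 CPM, and the DILP5 libraries 483, 508 and 519 CPM. All 6 DILP libraries lay above the 3 controls, with a gap far wider than the spread within any group. The counts behind these values ran from 8191 to 19561 per library. The fold change was 1.76 with DILP2 and 1.79 with DILP5, or log2 fold changes of 0.81 (standard error 0.039) and 0.84 (standard error 0.039). Of the genes called higher by edgeR's quasi-likelihood test at an adjusted p under 0.05, 17 of 479 rose further than *B4* with DILP2 and 14 of 564 with DILP5. Without the 3 C libraries, the log2 fold changes of *B4* were 0.81 and 0.82. The call was made for 10.9% of the 8981 genes tested with DILP2 and for 13.1% with DILP5. With CPM scaled by library size only, the called genes were 307 higher and 778 lower with DILP2 and 366 higher and 852 lower with DILP5, against 502 and 609 lower with TMM. All 4 genes were called in both comparisons, and nothing is read from this since those comparisons chose them.

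**Figure D1:**
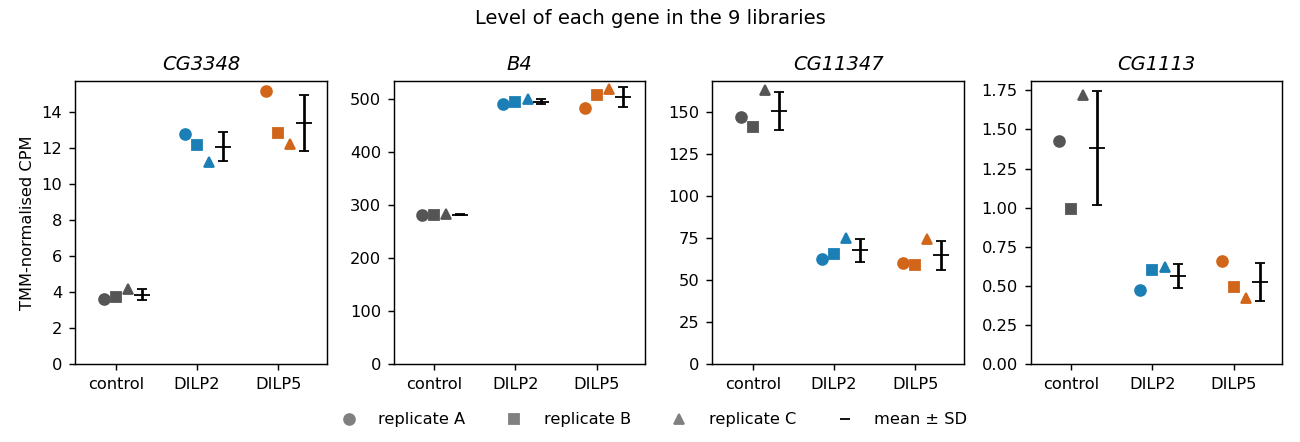
TMM-normalised CPM of each gene (vertical axes from 0) in the control, DILP2 and DILP5 libraries. Points are single libraries, with the replicate letter as the symbol, and bars are means ± SD of 3 libraries. For *B4*, the DILP libraries sit between 483 and 519 CPM and the controls between 280 and 283 CPM.

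*CG11347* (*DOR*) fell with both peptides. Its level was 148, 141 and 163 CPM in the control libraries A, B and C. The 3 DILP2 libraries held 62.4, 65.5 and 75.1 CPM. Those of DILP5 held 60.3, 59.0 and 74.8 CPM. The groups treated with a DILP did not overlap the control, which the choice of the genes favors. The C library was the highest in each of the 3 groups. The level with DILP2 was 44.9% of control and with DILP5 42.9% of control, or log2 fold changes of -1.15 (standard error 0.095) and -1.22 (standard error 0.095). Set against the control library of the same letter, the DILP2 libraries had ratios of 0.423, 0.464 and 0.460, so that C no longer stood apart. The DILP5 libraries had ratios of 0.409, 0.418 and 0.458, with C still the highest. With the 3 C libraries left out, the log2 fold changes were -1.17 and -1.27.

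*CG3348* showed the largest rise of any of the 8981 genes tested, with either peptide. Controls A, B and C held 3.63, 3.70 and 4.19 CPM. The DILP2 libraries held 12.8, 12.2 and 11.2 CPM and the DILP5 libraries 15.1, 12.8 and 12.2 CPM. The lowest DILP library thus lay well above the highest control. The counts were modest, from 108 to 144 in the controls and from 366 to 551 with a DILP. The fold change was 3.13 with DILP2 and 3.48 with DILP5 (log2 fold changes of 1.65 with a standard error of 0.11, and 1.80 with a standard error of 0.11). The C libraries held the highest control value and the lowest value of each DILP. Set against the control library of the same letter, the ratios of A, B and C were 3.52, 3.29 and 2.67 with DILP2. With DILP5 they were 4.17, 3.46 and 2.91, so C remained the lowest with each peptide. With the C libraries left out, the log2 fold changes were 1.77 and 1.93.

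The exons of *CG3348* overlap those of *Hmu*, which lies on the other strand, by 58 bp in the BDGP6 annotation, or 10.3% of the exonic length of *CG3348*. The strand setting of the counting is not given in the sources used here, so reads of the shared stretch cannot be assigned to either gene. *Hmu* was far more abundant, at 386 ± 15.4 CPM (SD, n = 3) in the control libraries, 387 ± 23.1 in those of DILP2 and 395 ± 11.4 in those of DILP5. Spread evenly over its exons, *Hmu* would give 9.49 CPM in 58 bp, which is more than *CG3348* had in the control. The log2 fold changes of *Hmu* were 0.0025 with DILP2 and 0.034 with DILP5 (adjusted p = 0.985 and 0.710 by edgeR's quasi-likelihood test). The part of *Hmu* reads in the level of *CG3348* was not tested.

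*CG1113* was the least abundant of the genes and fell with both peptides. Control libraries A, B and C had 51, 29 and 59 counts of it. The DILP2 libraries had 15, 18 and 22 counts, and the DILP5 libraries 24, 19 and 16. In CPM, the controls ran from 0.994 to 1.72, and the 6 DILP libraries from 0.425 to 0.659. The groups did not overlap, but control replicate B was the closest of the controls to the DILP libraries. The level was 40.7% of control with DILP2 and 37.9% with DILP5. The log2 fold changes were -1.30 (standard error 0.26) and -1.40 (standard error 0.26). Counting alone would give a coefficient of variation of 14.7% in the control and 23.4% with DILP2, against 26.4% and 14.0% measured. Set against the control library of the same letter, the ratios of A, B and C were 0.332, 0.603 and 0.359 with DILP2. With DILP5 they were 0.463, 0.496 and 0.247. With the 3 C libraries left out, the log2 fold changes were -1.19 and -1.08.

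**Figure D2:**
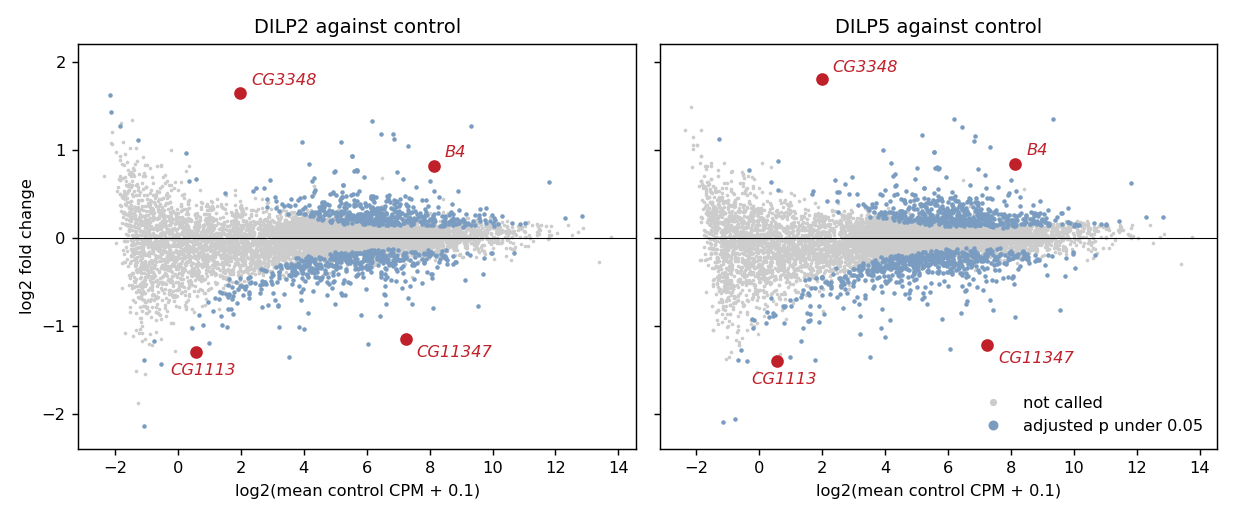
Log2 fold change of every tested gene (vertical axis) against its level in the control (horizontal axis, log2 of mean CPM + 0.1), for DILP2 on the left and DILP5 on the right. Blue points had an adjusted p under 0.05, and the 4 genes are in red. *CG3348* is the uppermost point in both panels, and *CG1113*, near 1.38 CPM in the control, lies among the genes called lower.

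The direct comparison of DILP5 with DILP2 was not itself used to choose the genes, but the same DILP libraries were. Its values for the 4 genes are therefore not independent of that choice. None of the 4 was called in it by edgeR's quasi-likelihood test, nor was any other gene. The paper, which also used edgeR but does not name the test within it, lists *CG6220*, *CG33774* and *mRpS5* as differing between the peptides. The count was 0 of 8981 genes (0%) at an adjusted p under 0.05, with 208 at an unadjusted p under 0.05, and DESeq2 and edgeR's likelihood ratio test also gave 0. For *B4*, the level with DILP5 was 1.02 times that with DILP2, with a 95% interval from 0.959 to 1.08 (unadjusted p = 0.540 and adjusted p = 0.9998 by edgeR's quasi-likelihood test). For *CG11347* the ratio was 0.955, with an interval from 0.826 to 1.11. *CG3348* was 1.11 times as high with DILP5, with an interval from 0.957 to 1.29, and had the smallest unadjusted p of the 4, at 0.150 in the same edgeR test. The interval of *CG1113* was much wider, from 0.592 to 1.46 around a ratio of 0.930. The adjusted p was 0.9998 for each gene. A p that misses the threshold does not show that the peptides act alike, and the intervals bound the difference closely for *B4* alone. The DILP2 and DILP5 libraries overlapped for all 4 genes.

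**Figure D3:**
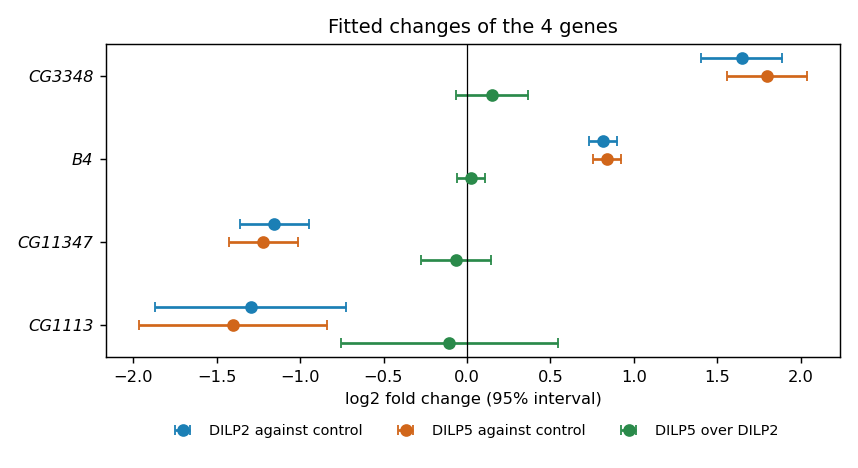
Fitted log2 fold changes of the 4 genes (horizontal axis) with 95% intervals, for DILP2 against control, DILP5 against control and DILP5 over DILP2. The green intervals, for DILP5 over DILP2, all include 0, and that of *CG1113* is the widest, from -0.76 to 0.55.

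Levels of different genes were compared as CPM per kb of exon. In the control the order was *CG11347* at 49.3 ± 3.73, *B4* at 34.7 ± 0.146, *CG3348* at 6.85 ± 0.546 and *CG1113* at 0.692 ± 0.183 CPM per kb (SD, n = 3), and no neighbours in this order overlapped. With DILP2, *B4* led at 61.0 ± 0.522 CPM per kb. *CG11347* at 22.1 ± 2.17 and *CG3348* at 21.5 ± 1.43 CPM per kb then overlapped between libraries. With DILP5 the means were 62.0 ± 2.28 for *B4*, 23.9 ± 2.76 for *CG3348* and 21.2 ± 2.86 for *CG11347*, and the last 2 again overlapped. *CG1113* had at most 0.331 CPM per kb in any DILP library. The exon lengths come from BDGP6 rather than from the annotation used for counting, so levels between genes are approximate. The level of *CG3348*, and so its place in this order, may also include reads of *Hmu* from the shared stretch described above.

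The genes also differed in how closely replicates matched. The SD of log2 CPM within groups was 0.032 for *B4*, against a median of 0.057 among the 500 genes nearest to it in level, of which 56 had a smaller SD. For *CG11347* it was 0.15 against a median of 0.060, and 485 of its 500 nearest genes had a smaller SD. *CG11347* was thus variable for its level in these libraries, although its DILP libraries all lay below its controls. Its C library was the highest in each group, and the part of this in its SD was not tested. *CG3348* and *CG1113*, with SDs of 0.13 and 0.30, lay close to their medians of 0.12 and 0.32.

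Genes beside the members were not used in choosing them. Of the 24 genes that lie 3 to each side, by order of start position, 13 passed the filter on low counts. Among the 24, *Hmu* overlaps *CG3348*, and *CG33640*, *CG33641* and *CG33642* overlap the body of *B4*. Beside *B4*, *CG33640* alone was tested, so no gene outside the body of *B4* was. Only *Syx17*, a syntaxin of autophagosome fusion that lies next but one to *CG11347*, was called. Its level was 19.0 ± 0.490 CPM (SD, n = 3) in control libraries, 14.7 ± 0.671 in those of DILP2 and 15.02 ± 1.03 in those of DILP5. Its log2 fold changes were -0.36 (adjusted p = 0.00817) and -0.34 (adjusted p = 0.00930) by edgeR's quasi-likelihood test. This is 1 of 13 genes, beside the 10.9% and 13.1% called among all genes. The gene between the 2, *CG15019*, had log2 fold changes of 0.13 and 0.20 (adjusted p = 0.192 and 0.0523 by the same edgeR test). Beside *CG3348*, *bigmax*, which encodes a partner of the sugar sensor Mondo, had log2 fold changes of -0.16 and -0.21 (adjusted p = 0.146 and 0.0583 by the same edgeR test). With DILP5, *CG15019* was called higher in 10 of 20 alternative fits and *bigmax* lower in 2 of 20. All 6 neighbours of *CG1113* were tested. Their log2 fold changes ran from -0.21 to 0.14 with DILP2 and from -0.69 to 0.13 with DILP5, with the lowest for *CG33293*, which had at most 12 counts in any library.

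**Figure D4:**
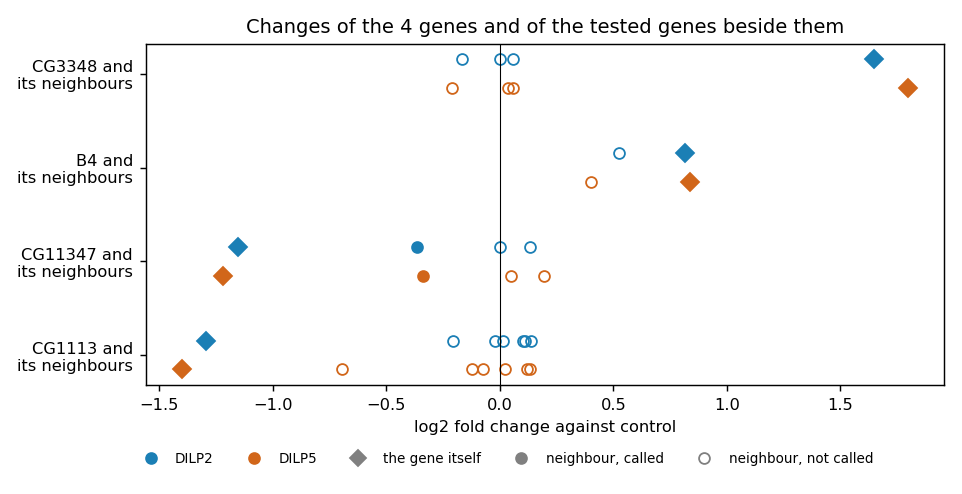
Log2 fold changes against control (horizontal axis) of each gene (diamonds) and of the tested genes among the 3 to each side of it (circles, filled where called), for DILP2 in blue and DILP5 in orange. Only *Syx17*, at -0.36 and -0.34 beside *CG11347*, is filled.

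The body of *B4* spans 10 other genes of the count table, 8 of them on the opposite strand, and no exons overlap. These genes were all scarce, with a mean of at most 3.96 CPM in any group, against 281 CPM of *B4* in the control. The 5 that were tested all had positive log2 fold changes, from 0.25 to 1.06 with DILP2 and from 0.12 to 1.14 with DILP5. None of them was called, and 1 of them, *CG33640*, is also among the neighbours above. The largest changes were those of *CG15638*, 1.06 with DILP2 and 1.14 with DILP5 (adjusted p = 0.233 and 0.166 by edgeR's quasi-likelihood test). It had 4 to 14 counts per library and lies on the same strand as *B4*.

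The genes whose log2 CPM followed each member most closely over the 9 libraries were then listed. Correlations are descriptive, since the 9 libraries fall into 3 conditions. The gene closest to *B4* was *Pi3K21B*, with a Pearson's r of 0.999 over 9 libraries. *Pi3K21B* encodes the regulatory subunit of PI3K named above. Its level in control libraries A, B and C was 187, 191 and 192 CPM. It was 280.3, 282 and 285 CPM in the DILP2 libraries, and 277, 281 and 291 CPM in the DILP5 libraries. As with *B4*, the DILP libraries all lay above the controls, and the lowest DILP library was DILP5 replicate A and the highest DILP5 replicate C. The log2 fold change of *Pi3K21B* was 0.57 with each peptide. *Pi3K21B* was picked for following *B4*, itself chosen for its change. Its rise and the order of its libraries therefore follow from that choice and are no support. The next closest to *B4* were *CG32103* (r = 0.997), a predicted mitochondrial carrier, and *CG42708* (r = 0.996), a glutaminase.

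*CG3348* was followed most closely by *Spargel* (r = 0.993), the fly PGC-1 homolog, *CG8026* (r = 0.993), another predicted mitochondrial carrier, and *chrb* (r = 0.992), an inhibitor of TORC1. Their log2 fold changes with DILP5 were 0.56, 1.16 and 1.35, all smaller than the 1.80 of *CG3348*. *CG11347* was followed by *CG12214* (r = 0.996), *CG13624* (r = 0.994) and *ced-6* (r = 0.994), an adaptor for the engulfment of dead cells. Of these, *CG13624* fell from 279 ± 19.1 CPM (SD, n = 3) in control libraries to 160.3 ± 14.4 in those of DILP2 and 149 ± 11.8 in those of DILP5. *CG1113* resembled *RN-tre* (r = 0.992) and *row* (r = 0.979), whose log2 fold changes were much smaller, from -0.13 to -0.06. Among the 4 genes themselves, *CG3348* and *B4* had r = 0.982 and *CG11347* and *CG1113* had r = 0.914. After the mean of each group was removed, *CG3348* and *B4* had r = -0.757 and *CG11347* and *CG1113* had r = 0.151. The 6 pairs then ran from -0.757 to 0.634, so the likeness of these 2 pairs lay mainly in the group means.

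**Figure D5:**
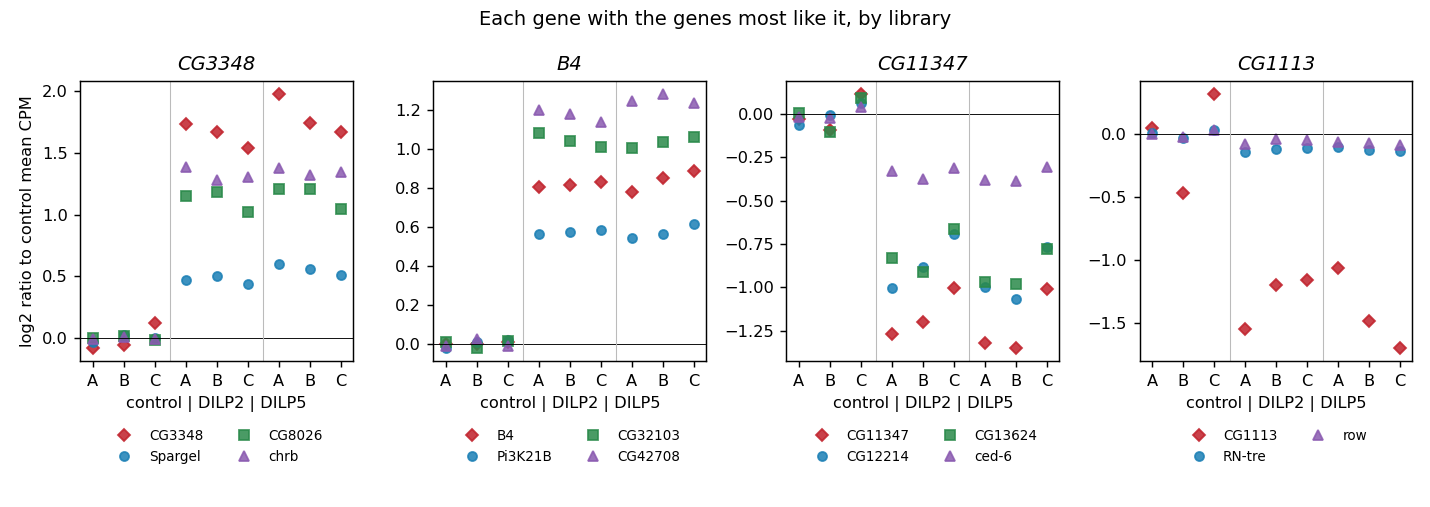
Log2 ratio of each library's CPM to the control mean (vertical axis) for each gene (red diamonds) and the genes named as most correlated with it over the 9 libraries, 3 for each except *CG1113* with 2 (replicates A, B and C of control, DILP2 and DILP5 along the horizontal axis). *Pi3K21B* lies below *B4* in every DILP library, with log2 fold changes of 0.57 against 0.81 and 0.84.

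The genes that Susi is known to act through were read beside *B4*. Of 12 genes of PI3K and Akt signaling, 4 were called with DILP2, 1 higher and 3 lower, and 6 with DILP5, 1 higher and 5 lower. Among all genes, DILP2 gave 5.33% called higher and 5.59% lower, and DILP5 gave 6.28% and 6.78%. The gene that rose was *Pi3K21B*, which was also picked above for following *B4*. Those that fell with both peptides were *Pdk1* (listed as *Pk61C*, log2 fold changes of -0.51 and -0.46), *Akt* (listed as *Akt1*, -0.16 and -0.20) and *chico* (-0.23 and -0.20), which encode kinases and the receptor substrate of the pathway. *Pi3K92E*, the catalytic partner of *Pi3K21B*, had log2 fold changes of -0.11 for DILP2 and -0.15 for DILP5 (adjusted p = 0.103 and 0.0271 by edgeR's quasi-likelihood test). *Pi3K68D* was also called with DILP5, at -0.25. The calls of *Pi3K21B* and *Pdk1* held in each of the 20 alternative fits. Those of *chico* with both peptides, *Akt* with DILP2 and *Pi3K92E* and *Pi3K68D* with DILP5 were lost without control replicate A, among others. Without the 3 C libraries, 1 gene was called higher and 3 lower with each peptide, and *Akt* with DILP2 and *chico* and *Pi3K92E* with DILP5 were not among them. The median log2 fold change of the 12 genes was -0.090 and -0.14, against -0.00225 and -0.00195 over all genes tested.

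Beside *CG11347*, the ecdysone receptor, other genes of the ecdysone response, FOXO, its targets and autophagy genes were read as the surroundings of DOR. Of 19 that were tested, 6 were called with DILP2 and 7 with DILP5, each of them lower. The shares called lower among all genes were 5.59% and 6.78%. *EcR*, the receptor itself, fell with log2 fold changes of -0.31 and -0.34, whereas its partner *usp* had 0.058 and 0.031 (adjusted p = 0.461 and 0.701 by edgeR's quasi-likelihood test). The FOXO targets *InR* (-0.46 and -0.53) and *Thor* (-0.76 and -0.72), the ecdysone target *Eip74EF* (-0.35 and -0.33) and the autophagy kinase gene *Atg1* (-0.29 and -0.30) fell with both peptides. *foxo* itself had 0.053 and 0.11 (adjusted p = 0.559 and 0.186 by the same edgeR test). The ecdysone genes *Eip75B* (-0.091 and -0.040) and *br* (-0.040 and -0.067) were not called with either peptide. Nor was *Atg8a* (-0.15 and -0.10), and *Atg8b* was too scarce to be tested. *CG11347* fell further than each gene of this list that was called with both peptides. *E23*, an ecdysone-induced transporter gene called with DILP2 alone (log2 fold change -1.39), had only 4 to 18 counts per library, its difference between the peptides was not called, and its call was lost in 14 of 18 alternative fits. The calls of *EcR*, *InR* and *Atg1* held in all 20 alternative fits, while those of *Thor* and *Eip74EF* were lost without control replicate A, among others. Without the 3 C libraries, 6 and 7 genes of the list were called, each lower, but *E23* was not among them. The list was drawn up with earlier results of these libraries known, so its counts are no independent evidence.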

How the data were processed

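RNA-Seq counts from 9 S2 cell libraries (control, DILP2 and DILP5, 3 each) were used. The authors sequenced single-end reads, aligned them to the dm3 genome by Tophat and Bowtie, counted them per gene in easyRNASeq and deposited the raw counts, with replicates kept apart and no normalization. The sources used here do not give software versions, the gene annotation, whether counting used strand or how multi-mapping reads were treated, so overlapping genes and near-identical copies are uncertain.

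Counts were analysed with edgeR 4.0.16 in R 4.3.3, in a single fit of the 9 libraries without a block. The default low-count filter left 8981 genes, TMM normalization was used, and genes with a quasi-likelihood adjusted p (Benjamini-Hochberg over all genes tested) under 0.05 are called. A standard error is a log2 fold change's size over the square root of its F, and 95% intervals use the degrees of freedom of the fit. Log2 CPM used a prior count of 2. Names, neighbours and exon lengths came from BDGP6, in which 13389 identifiers were found, and synonyms from RefSeq. Figures were drawn with matplotlib 3.10.9.

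The members and gene lists were chosen with earlier results of these data known, and the PI3K list was added once the annotation had given the name Susi. Genes named are the members, the 3 genes to each side, genes overlapping a member, the 3 most correlated genes (other than 1 that is not reported here) and up to 6 called genes of each list. *E23*, uncalled list genes and the markers printed were picked with their values in view. Alternatives changed the test (DESeq2 1.42.0, likelihood ratio), the scaling (DESeq2 size factors, library size), the count filter (none, or 10 counts in all libraries), the libraries in the fit (6, or each left out), the depth (thinning), the threshold (0.01) or added a replicate block. Leaving out the 3 C libraries together was added after the data were seen.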

Additional observations from a re-analysis of the deposited data

How the results depend on the processing

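The changes of the 4 genes against control were chosen for holding when a library is left out, so their range over the alternatives is a description and no sign of stability. DESeq2 gave *CG1113* no adjusted p. The log2 fold changes against control ran from 1.60 to 1.93 for *CG3348*, from 0.78 to 0.87 for *B4*, from -1.34 to -1.09 for *CG11347* and from -1.59 to -1.08 for *CG1113*, over both peptides. For DILP5 over DILP2, no alternative called any gene. The log2 fold change of *CG11347* changed sign without DILP2 replicate C, and its range with single libraries left out was -0.18 to 0.017. That of *CG1113* changed sign without DILP5 replicate C (-0.30 to 0.026) and was 0.10 with the 3 C libraries left out. The number of genes called moved more. With the replicate letters as a block, the calls numbered 1781 for DILP2 and 2068 for DILP5, against 981 and 1173. At an adjusted p under 0.01 there were 373 and 498. With single libraries left out, the counts ran from 487 to 1007 with DILP2 and from 622 to 1270 with DILP5. With DILP2 they were 508 without control replicate A, 487 without control replicate C, 523 without DILP2 replicate A and 651 without DILP2 replicate B. With DILP5 they were 622 without control replicate A, 624 without control replicate C, 759 without DILP5 replicate A and 629 without DILP5 replicate B. Without control replicate B they were 712 with DILP2 and 852 with DILP5. The count with DILP2 was 968 without DILP2 replicate C, and that with DILP5 was 1176 without DILP5 replicate C. The cause was not tested. The libraries were not treated as paired. Same-letter deviations from the group mean correlated at 0.286 to 0.348 for C and at 0.142 to 0.163 for A, but at -0.0354 to 0.0967 for B, and control replicate A correlated best with DILP5 replicate B (0.189).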

Other observations

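A pair of further lists had been drawn up for presumed relatives of *B4* and *CG3348*, but the annotation at hand does not give those family ties, so they stand apart from the results. Of 17 FERM domain genes tested, 3 were called with DILP2 (*Ptpmeg2* higher, *Fak* and *Fit1* lower) and 2 with DILP5 (*Ptpmeg2* higher, *Fit1* lower), beside 10.9% and 13.1% of all genes. The call of *Fak* was lost in 13 of 20 alternative fits, and that of *Fit1* in 5 of 20 with DILP2 and 2 of 20 with DILP5. With CPM scaled by library size only, 5 and 4 of them were called lower. Their log2 fold changes were 0.16 and 0.18 for *Ptpmeg2*, -0.23 and -0.25 for *Fit1*, and -0.19 with DILP2 for *Fak*. For 21 tested genes of chitin binding and handling, the median log2 fold change was -0.037 with DILP2 and 0.011 with DILP5, and the smallest adjusted p was 0.103 and 0.172 by edgeR's quasi-likelihood test.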
